A study of Danio rerio with 16 samples.

Results

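This report describes 200 genes whose normalized counts were alike in ovary and testis of adult zebrafish. They were selected on the deposited normalized counts: a gene had to reach 500 in each of 16 fish, and the log2 of the mean of 8 males over the mean of 8 females had to lie under 0.3 in absolute value. Of the 28353 genes with normalized counts, 1134 reached 500 in every fish, and 270 of these met the ratio limit. The 200 with the highest mean over the 16 fish were taken. The rule also names 8 genes to be left out, of which 0 met both limits. The level and the ratio between the sexes therefore chose the genes, so both are given here as a description, without a test.

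The study exposed 4-month-old AB strain zebrafish to exemestane (EM), an inhibitor of aromatase, the enzyme that makes estrogens from androgens, and asked how the gonads respond. Ovaries and testes of single fish were sequenced after 32 days, with 2 females and 2 males in each of 4 groups. EM-females and EM-males were kept at 50, 100 or 200 μg/L EM, while the control females and control males, labelled 0 μg/L, are read here as having received the solvent, DMSO, alone. Each treatment was 1 tank with 3 males and 3 females, so that tank and treatment cannot be told apart. The p-values below measure the spread between fish. Where the 3 concentrations are pooled, that spread also holds differences between concentrations and their tanks.

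Genes that most cells need in every tissue are called housekeeping genes: they build ribosomes, fold and destroy proteins, splice messages, pack chromatin and run the respiratory chain. Such genes serve as references when 2 tissues are compared, because a gene that does not differ between the tissues shows the scale on which others do. The RNA of an adult fish ovary lies largely in growing oocytes, which store messages for the embryo, while a testis holds dividing germ cells, sperm precursors and somatic cells.

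Marker genes separated the tissues as labelled. Summed over 14 oocyte genes, the normalized counts ran from 84091 to 107887 in the females and from 439 to 765 in the males. Summed over 13 testis genes they ran from 16190 to 27968 in the males and from 801 to 1211 in the females. Of that list *cyp17a1*, which makes androgens and is also active in ovary, lay the other way, with 592 to 1039 in females and 102 to 735 in males, and so made up most of the female sum. The testis sum was lower in all 6 EM-males (16190 to 25276) than in both control males (25499 and 27968). The largest gap was in *insl3*, a hormone of Leydig cells, at 2036 to 5114 against 11037 and 13230. The list did not fall as a whole. *amh* (341 to 1743 against 2754 and 1850) and *cyp17a1* (102 to 415 against 735 and 434) were also lower in all 6 EM-males. *TSSK6* was higher in all 6 (222 to 614 against 118 and 197), and in the other testis genes the groups overlapped. The part of these differences in the comparisons of EM-males below was not tested. The libraries held from 8311132 to 13821205 counts on genes in the females and from 4043394 to 9674058 in the males, so that the smallest count of any of the 200 genes in any fish was 208.

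The male libraries stood apart from each other in genes of neighbouring organs and of immune cells. The sum over 13 genes of the exocrine pancreas, a list written after the data were seen, ran from 65.0 to 198 in the females and from 2163 to 179188 in the males. It was highest in control male 1 (179188), EM200 male 2 (62920), EM50 male 2 (51552) and EM200 male 1 (24326), and the other 4 males had at most 6671. EM200 male 2 also had the highest sum of 10 intestine genes, 51629, against 22205 in control male 1 and at most 11236 in the other males. The sum of 12 liver genes ran from 828 to 29367 in the males, highest in EM50 male 2, control male 1 (20946) and EM200 male 2 (18733), with 10084 in EM100 male 2 and 6654 in EM100 male 1. In the females it was 1421 in control female 1 and at most 532 in the others. The sum of 8 muscle genes was highest in control male 1 (6535) and EM50 male 1 (4505). The sum of 6 immune genes ran from 33.9 to 78.2 in the females and from 1166 to 14772 in the males. It was highest in EM200 male 2, control male 1 (14160), EM50 male 2 (7727) and control male 2 (6263). None of the 13 pancreas genes was at 0 in all females or in all males. The 20 genes with the most counts took 16.6% to 21.6% of the counts in those 4 males, and 4.88% to 9.11% in the other 12 fish. The main results that rest on male fish are given below also without the males richest in pancreas genes. No result is given without the males that were high in liver or muscle genes alone. In pieces of whole gonad, fewer cells of a type and less RNA per cell cannot be told apart.

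The 200 genes took a steady share of each ovary library. They held 5.15% to 5.34% of the counts in the 8 females, and 3.78% to 5.47% in the 8 males. The shares of the males were lowest in control male 1 (3.78%) and EM200 male 2 (3.84%), the 2 males richest in pancreas genes, and highest in EM100 male 1 (5.47%) and control male 2 (5.44%). The part of the pancreas genes in these shares was not tested. The median of the mean normalized counts of the 200 genes was 1515.5, with a range from 952 to 17766. These values are not divided by transcript length, so their order is one of counts and not of molecules.

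**Figure D1:**
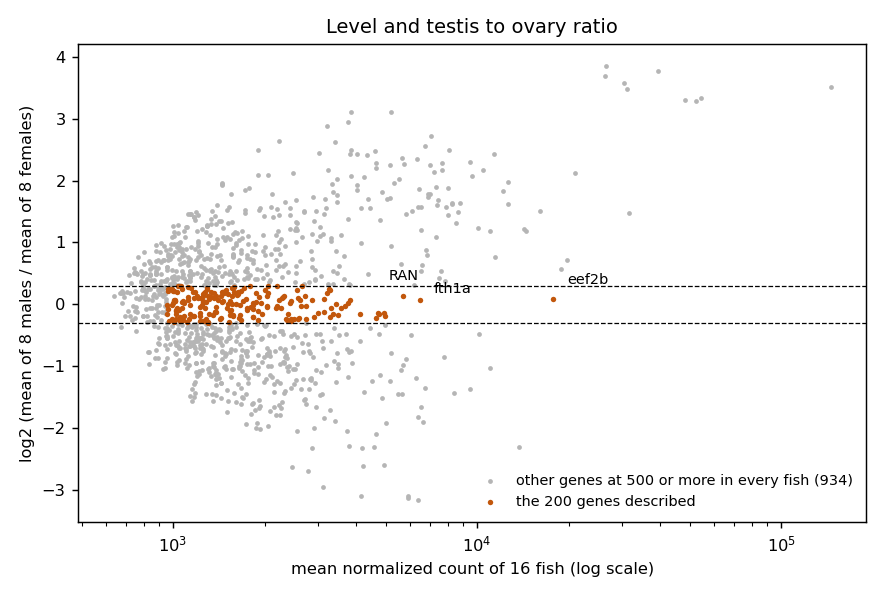
Mean normalized count of the 16 fish (x, log scale) against the log2 ratio of the male to the female mean (y) for the 1134 genes with at least 500 in every fish. The 200 genes described (orange) lie between the dashed limits of −0.3 and 0.3 by construction, with eef2b at the highest mean (17766), and 934 other genes are in grey.

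The ratio limits cut through a continuous distribution. Of the 1134 genes, 456 were higher in males by 0.3 or more on the log2 scale and 408 were higher in females by 0.3 or more. Just inside the limit on the male side lay *vapal* (0.30 on the log2 scale), *ATP5PO* (0.30) and *rad21a* (0.30), and just outside it *ERP44* (0.30), *kdelr2a* (0.30) and *trpc4apa* (0.31). On the female side the last genes inside were *CU856539.2* (−0.30), *hnrnph1l* (−0.29) and *U2AF1* (−0.29), and the first outside were *USP1* (−0.30), *PPM1G* (−0.31) and *MCRS1* (−0.31). By rank the last genes taken were *PSMA6* with a mean of 958 and *gcn1* with 952, and the first not taken were *ACSBG2* with 951 and *med15* with 950.4. A gene next to a limit thus differed from its neighbour outside by much less than the spread between fish.

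Among the 200, the mean was higher in males for 101 genes and higher in females for 99. For 71 genes the log2 ratio lay within 0.1 of 0. In all 200 the values of the females and the males overlapped. The limit on the ratio favours such overlap, so it is no further result about these genes. Between the control fish alone the ratio stayed inside the limit for 125 of the 200, and between the EM fish alone for 171. The sign of the ratio differed between control and EM fish for 86 genes. The rule held the ratio over all 8 fish of each sex near 0, and 6 of those 8 were EM fish. Differing signs, and more genes inside the limit in EM fish, are thus largely set by the rule and are no result about EM. With 2 control fish per sex, the control ratios ranged from −0.87 to 0.79.

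The gene with the highest counts was *eef2b* (ENSDARG00000100371), an elongation factor that moves the ribosome along the message. Its normalized count was 17205 ± 1758 in females and 18327 ± 9790 in males (SD, n = 8 each). In females it ran from 14055 over a median of 17505 to 19248. In males it ran from 9444 over a median of 13903 to 36140, with 36140 in EM200 male 2 and 31090 in control male 1. The equal means thus joined a narrow range in ovary with a wide one in testis, and without those 2 males the log2 ratio was −0.38, outside the limit.

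*fth1a* (ENSDARG00000015551), a ferritin heavy chain that stores iron, followed with 6313 ± 945 in females and 6627 ± 3047 in males (SD, n = 8 each). Its male values ran from 3632 over a median of 5161 to 11570, again with EM200 male 2 the highest. The second ferritin gene at this level, *fthl27*, was also among the 200. It spread from 1125 to 3774 in females and from 1181 to 3581 in males, so that for it the ovaries were as uneven as the testes.

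*RAN* (ENSDARG00000057026), the small GTPase that gives direction to transport through the nuclear pore, was much tighter. It measured 5432 ± 392 in females and 5967 ± 1043 in males (SD, n = 8 each), with 8275 in control male 1 and at most 6443 in any other male. *nutf2l*, which carries RAN back into the nucleus, ran from 1619 to 2040 in females and from 694 in EM200 male 2 to 1898 in males. *IPO7* (ENSDARG00000035751), an import carrier, measured 4982 ± 329 in females and 4286 ± 859 in males. Most of their relatives lay elsewhere. Of 27 genes of nuclear transport at 500 or more in every fish, 5 were among the 200 (*RAN*, *IPO7*, *nutf2l*, *nup153* and *NUP50*), 17 were higher in females by at least 0.3 and 4 higher in males. For scale, here and for the lists below, 200 of all 1134 genes at that level were taken and 270 were inside the limit. Genes of a list that are in none of its counts were inside the limit but lower in rank than the 200. Of 11 importins and exportins *IPO7* was the only one inside the limit.

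Translation factors gave 11 of the 200 genes, out of 38 at the level minimum, with 16 higher in males and 11 higher in females. *EIF5A2* (ENSDARG00000056186), a form of the factor that helps ribosomes past stalls, measured 5021 ± 381 in females and 4494 ± 643 in males (SD, n = 8 each). *EIF2S2*, a subunit of the factor that brings the initiator tRNA, measured 3012 ± 208 and 3537 ± 743. The parts of the initiation complexes were not alike. Of 16 genes of eIF2 and eIF3 at the minimum, 6 were among the 200 (*EIF2S2*, *EIF2S3B*, *EIF3M*, *EIF3I*, *EIF3B* and *EIF3L*), 8 were higher in males and 2 higher in females, and their log2 ratios ran from −1.74 for *eif2s1a* to 1.58 for *EIF3K*.

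Cytosolic ribosomal proteins were nearly absent from the set. Of 64 at the level minimum 62 were higher in males, with a median log2 ratio of 1.80, and 1 was higher in females. The one inside the limits was *RPL5* (ENSDARG00000015862), a protein of the large subunit. It was also one of the least steady of the 200: its normalized counts ran from 1778 over a median of 3701 to 5712 in females and from 2178 over a median of 2669 to 10219 in males. The value of 10219 came from EM50 male 2, and the other 7 males had at most 4501. The means of 3732 ± 1431 in females and 3763 ± 2703 in males (SD, n = 8 each) were alike while the fish within a sex differed up to 4.69 times.

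Protein folding was represented by 9 of 31 genes, with 9 higher in males and 13 higher in females. Among them were 5 of 8 genes of the CCT chaperonin, the ring that folds actin and tubulin. The groupings by complex used here and below were made after the data were seen. In females *CCT6B* measured 4345 ± 449, *CCT4* 3633 ± 408 and *CCT5* 3445 ± 542 normalized counts (SD, n = 8). In males the same 3 subunits measured 3888 ± 357, 3495 ± 801 and 3431 ± 431 (SD, n = 8). *CCT7* and *CCT8* completed the 5, with log2 ratios of −0.21 and −0.03. Outside the limit were *CCT3* at −0.38, *TCP1* at −0.94 and *CCT2* at 1.35. Genes of one ring thus lay on both sides of the limits. Reads that matched more than 1 place were in no gene's count, so values of any gene with a close copy are uncertain. Which of the genes have a close copy was not examined here.

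*PDIA3* (ENSDARG00000102640), which forms disulfide bonds in the endoplasmic reticulum, had the largest male spread among the folding genes. In females its normalized count ran from 2647 over a median of 3793 to 4350. In males it ran from 1079 over a median of 2481 to 8117, with 8117 in EM200 male 2, 7548 in control male 1 and 4300 in EM50 male 2. The means, 3712 ± 523 in females and 3619 ± 2814 in males (SD, n = 8 each), were close with those fish included: without the 2 males richest in pancreas genes the log2 ratio was −0.75, and without 4 it was −1.06. EM200 male 2, control male 1 and EM50 male 2 were also the males richest in pancreas genes. By that sum control male 1 (179188) came before EM200 male 2 (62920). The part of the pancreas genes in the *PDIA3* values was not tested.

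The proteasome and ubiquitin system gave 20 of the 200 genes, out of 67 at the minimum, with 22 higher in males and 23 higher in females. Of 12 genes of the proteasome core, the barrel that cuts proteins, 7 were among them, with 4 higher in males and 1 higher in females. The cap that unfolds tagged proteins gave 5 of 12, with 5 higher in females and 1 higher in males. *PSMA4*, a subunit of the core, measured 2210 ± 230 in females and 2362 ± 339 in males (SD, n = 8 each). *cul4b*, the scaffold of a ubiquitin ligase, measured 2067 ± 267 and 1849 ± 318. *rnf8*, a ligase that marks damaged chromatin, measured 2080 ± 267 and 2006 ± 652, with its lowest males EM200 male 2 (1067) and control male 1 (1305).

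Splicing and RNA binding was the second large group, with 19 of 86 genes, 38 higher in males and 28 higher in females. *snrpb* (ENSDARG00000011125), a core protein of the spliceosome, measured 5173 ± 1089 in females and 4682 ± 1471 in males (SD, n = 8 each). *rbm4.3*, an RNA-binding protein, measured 2221 ± 406 and 2430 ± 350, and *srsf2a*, a splicing factor of the SR family, ran from 1735 to 2574 in females and from 1486 to 2149 in males. *alyref* (ENSDARG00000077732), an adaptor for export of messages, and *taf15* (ENSDARG00000070019), an RNA-binding protein of the FET family, fall outside that list by name but had 4993 and 4717 as means of the 16 fish. *taf15* ran from 4295 to 5524 in females and from 3066 to 6967 in males, where EM200 male 2 was the highest.

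Chromatin and transcription gave 13 of 63 genes, 15 were higher in males and 30 higher in females. *SET* (ENSDARG00000003920), a histone chaperone, measured 3742 ± 329 in females and 3901 ± 567 in males (SD, n = 8 each). *h3f3d*, a replacement histone, measured 2665 ± 328 and 2617 ± 822. *smarca5*, the motor of ISWI remodelling complexes, was nearly constant in ovary, from 2634 to 3028, while in testis it ran from 1401 in control male 1 to 3475 in EM100 male 1. Of 24 genes for the maintenance of DNA and chromosomes 4 were among the 200: *RPA1*, *rad21a*, *SMC5* and *RAD23B*. *RPA1*, which coats single-stranded DNA, ran from 2011 to 3210 in females and from 1014 to 3177 in males. *rad21a*, a subunit of cohesin, ran from 1385 to 1927 and from 1048 to 3037. *SMC5*, part of a complex that repairs DNA, measured 1277 ± 190 in females and 1441 ± 316 in males. *cenpe* (ENSDARG00000063385), a kinesin of the kinetochore, belongs to none of these lists, and its 3704 ± 308 in females stood beside 3270 ± 837 in males.

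Mitochondrial energy production gave 15 of 68 genes, against 38 higher in males and 12 higher in females. All 9 genes of the mitochondrial genome at the minimum were higher in males, with a median log2 ratio of 3.51, which was 2.86 without the 2 males richest in pancreas genes and 2.08 without 4, so that the 15 are all products of nuclear genes. *atp5mc3b*, a subunit of the ATP synthase, measured 3006 ± 511 in females and 3389 ± 881 in males (SD, n = 8 each). *VDAC2*, a pore of the outer membrane, measured 3276 ± 396 and 3009 ± 997. *ATP5PO*, another ATP synthase subunit, lay just inside the limit with 2380 ± 356 and 2926 ± 848. Glycolysis had 0 of 9 genes in the set: 8 were higher in females and 1 in males.

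The remaining lists were small. *ARPC1A* and *ARPC2*, subunits of the complex that branches actin filaments, *PFN2*, a profilin, and *ACTR1A* made up 4 of 18 actin genes. *PFN2* ran from 1910 to 2463 in females and from 1917 to 3241 in males. *ARPC1A* was tight in ovary, from 1657 to 2026, and wide in testis, from 1089 to 4409. *tubb2b*, a beta tubulin, was the 1 member of 17 microtubule genes, and the other 3 tubulins at the minimum were higher in females. Membrane traffic gave 8 of 41, with *DNM1L*, which divides mitochondria, at 1664 ± 130 in females and 1656 ± 291 in males, *SEC63*, which helps proteins into the endoplasmic reticulum, at 1538 ± 117 and 1698 ± 329, and *arf2a*, a small GTPase of the Golgi, at 1479 ± 108 and 1698 ± 464 (SD, n = 8 each).

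Of 9 enzymes that charge tRNAs 2 were inside, *KARS1* and *IARS1*, with means over the 16 fish of 3361 and 1243, and *atp2b1a*, a calcium pump, was the 1 of 4 pumps. Kinases and phosphatases gave 7 of 39. *ptp4a2b*, a small phosphatase, ran from 1965 to 2400 in females and from 903 to 4214 in males. *csnk1da*, a casein kinase, ran from 1665 to 2217 and from 1513 to 2963, and *PPP6R3*, a regulatory subunit, from 1668 to 1999 and from 1491 to 2511. The first of the 3 had its highest values in control male 1 and EM200 male 2, and the other 2 had theirs in EM100 male 1. The list of antioxidant and iron genes held *fth1a* alone of 10. Altogether 121 of the 200 genes belonged to at least 1 of the 18 lists, and 79 to none. The list shares above stand beside 200 of all 1134 genes at the minimum. Splicing, chromatin, mitochondrial energy production, membrane traffic, nuclear transport, DNA maintenance, actin, tRNA charging, and kinases and phosphatases lay near that share. No list was tested against it.

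**Figure D2:**
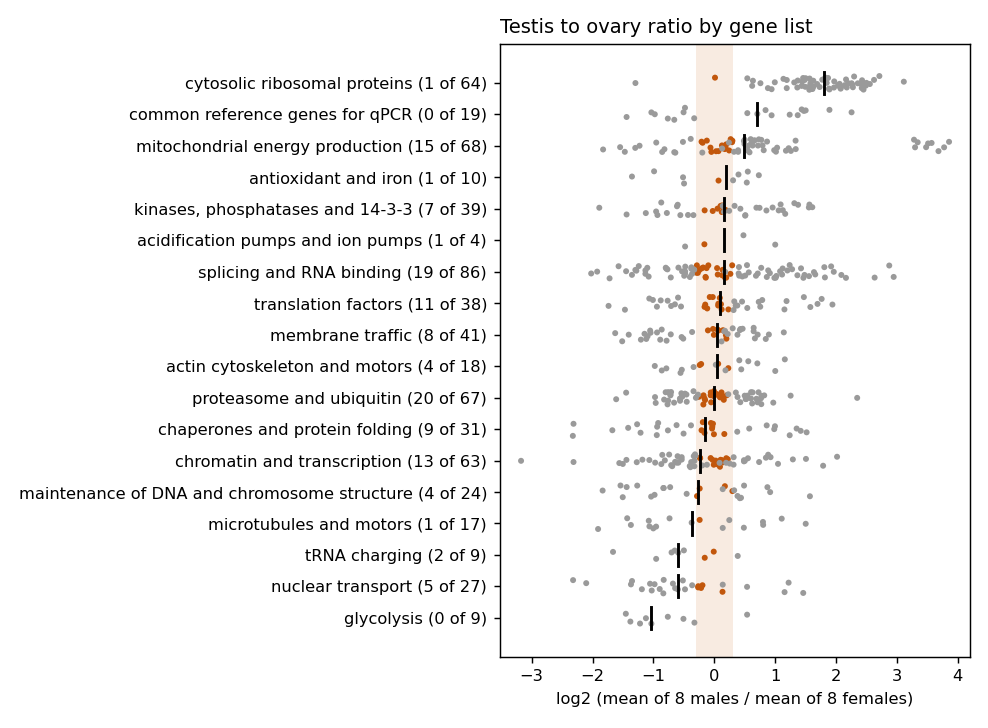
Log2 ratio of the male to the female mean (x) for the genes of each of 18 lists (y) that had at least 500 normalized counts in every fish; orange dots are the genes described, grey dots the others, black bars the list medians, and the band marks the limits of −0.3 and 0.3. The numbers in parentheses are genes described of genes at the minimum. Ribosomal proteins (1 of 64) lie to the right and glycolysis (0 of 9) to the left of the band.

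Genes often used as references in quantitative PCR were compared with the same limits. Of 32 that were measured, 19 reached 500 in every fish, and 0 of these met the ratio limit: 11 were higher in males and 8 higher in females. That 0 was also found with library totals, but TMM and the upper quartile each gave 1 inside, and leaving out the 2 or the 4 males richest in pancreas genes gave 2. The log2 ratios of those 19 began at −1.44 for *ywhaz*, −1.03 for *GAPDH* and −0.98 for *actb1*, and reached 1.89 for *RPL11* and 2.26 for *RPS18*, with *RPLP0* between *eef1a1l1* (1.47) and *RPL11*. The closest to 0 among them were *lsm12b* at −0.33, *ubc* at −0.48, *ppiab* at −0.50 and *RPL19* at 0.54. Also at the minimum were *pgk1* (−0.76), *SDHA* (−0.66), *actb2* (0.71), *MOB4* (0.84), *RPL7* (0.94), *ppiaa* (1.24), *RPS23* (1.37) and *RPL8* (1.44).

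The reference genes under the minimum included *tuba1b* (0.01), the 1 with a ratio inside 0.3, and, outside it, *hmbsb* (−1.69), *tbp* (−1.57), *hmbsa* (−1.52), *METAP1* (−1.43), *hprt1* (0.74), *tmem50a* (0.78), *RPL13A* (0.80), *UBE2A* (1.27), *GUSB* (1.64), *TUBA1A* (3.35) and *b2m* (7.90). The limits act on the lowest value and on the means of the sexes, and so also narrow the spread over the 16 fish. In that spread *PUF60* was an extreme. That gene (ENSDARG00000001241), which helps to select the 3′ splice site, had the smallest spread of all 200, with an SD of 0.131 on the log2 scale over 16 fish. Its normalized counts ran from 1985 to 2526 in females and from 1911 to 2488 in males.

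The rule set the equality of the sexes on the authors' scale, and that equality held less on other scales. Part of the loss is to be expected, because the genes were chosen on 1 scale. Scaled by TMM, which trims the most extreme genes, the median log2 ratio of the 200 moved from 0.00 to −0.29, and 102 of them met both limits, while 95 were higher in females by 0.3 or more and 0 higher in males. Scaled to library totals the median was −0.14 and 137 met both limits. By the upper quartile it was −0.22, with 73 higher in females by 0.3 or more. A similar number of genes passed the rule under each scaling, 262 to 275 against 270, but they were in part other genes. Relative to one another the lists kept their order at the ends, with ribosomal proteins at a median from 1.49 to 1.80 and glycolysis from −1.39 to −1.03 under the 4 scalings. The balance of the groups in between turned with the scale: 16 translation factors were higher in males and 11 in females on the authors' scale, and 10 and 16 by TMM. Splicing genes went from 38 and 28 to 31 and 39, and kinases and phosphatases from 17 and 12 to 13 and 14. Of the 31 folding genes 9 were inside the limit on the authors' scale and 4 by TMM, and of the 8 CCT genes 5 were inside on that scale, 1 by TMM and 3 each by library totals and the upper quartile.

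The lists also shifted without males rich in pancreas genes. Without the 2 richest, genes higher in males went from 38 to 31 in mitochondrial energy production, from 16 to 11 among translation factors and from 8 to 6 in eIF2 and eIF3. The CCT genes inside the limit were again 5 in number, those of the proteasome and ubiquitin system again 22, and those of splicing went from 20 to 21.

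*COX5B* (ENSDARG00000015978) and *NDUFA9* (ENSDARG00000070723), subunits of respiratory complexes IV and I, followed *PUF60* with SDs of 0.150 and 0.153 over the 16 fish. *COX5B* ran from 1548 over a median of 1764 to 1895 in females and from 1732 over a median of 1992 to 2265 in males. *NDUFA9* ran from 1007 over a median of 1293 to 1436 in females and from 1075 over a median of 1187 to 1400 in males. At the other end stood *UCP2* (0.933), *PDIA3* (0.826) and *NPC2* (0.695). Over all 200 the median SD was 0.296 across 16 fish, beside 0.537 in the 934 other genes at the level minimum. Pooled within the sexes the medians were 0.287 and 0.318. The ratio limit bounds the gap between the sexes, and the minimum of 500 in every fish limits how low a value could go.

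*UCP2* (ENSDARG00000043154), a carrier of the inner mitochondrial membrane, ran from 1070 over a median of 1833 to 2641 in females. In males it ran from 548 over a median of 834 to 5638. EM200 male 2 had 5638, control male 1 had 2714 and EM50 male 2 had 2287, and the other 5 males had at most 847. *NPC2* (ENSDARG00000090912), which binds cholesterol in lysosomes, ran from 1465 to 2205 in females and from 567 to 4920 in males, and the same 3 fish were its highest males. Without the 2 males richest in pancreas genes the log2 ratio was −0.91 for *UCP2* and −0.60 for *NPC2*. Both would then have left the set.

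That pattern was shared more widely. The SD on the log2 scale was larger in males than in females for 182 of the 200 genes, with medians of 0.356 in males and 0.171 in females, and likewise for 864 of the 934 other genes at the level minimum. The highest of the 16 values came from a male for 158 genes and the lowest from a male for 160. As the rule held the means of the sexes alike, these counts follow largely from the wider male spread. EM200 male 2 alone held the lowest value of 54 genes and the highest of 28, control male 1 the lowest of 27 and the highest of 27, and EM100 male 1 the highest of 43.

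Set against the mean of the females, between 146 and 187 of the 200 genes in a female lay within 0.3 on the log2 scale, each female being set against the other 7. In the males the number was 76 in EM200 male 2, 91 in control male 1, 96 in EM100 male 1, 108 in EM50 male 1, 118 in control male 2, 124 in EM200 male 1, 126 in EM100 male 2 and 134 in EM50 male 2. Each testis thus departed from ovary in more of these genes than any ovary did, though the rule held the means of the sexes alike. Females were set against their own sex and males against the other, and the 934 other genes were not counted in this way. EM50 male 2, with the third highest sum of pancreas genes, was the male closest to the ovaries by this count, and EM100 male 1, with a pancreas sum of 2647, was the third farthest. The part of the pancreas genes in these counts was not tested.

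**Figure D3:**
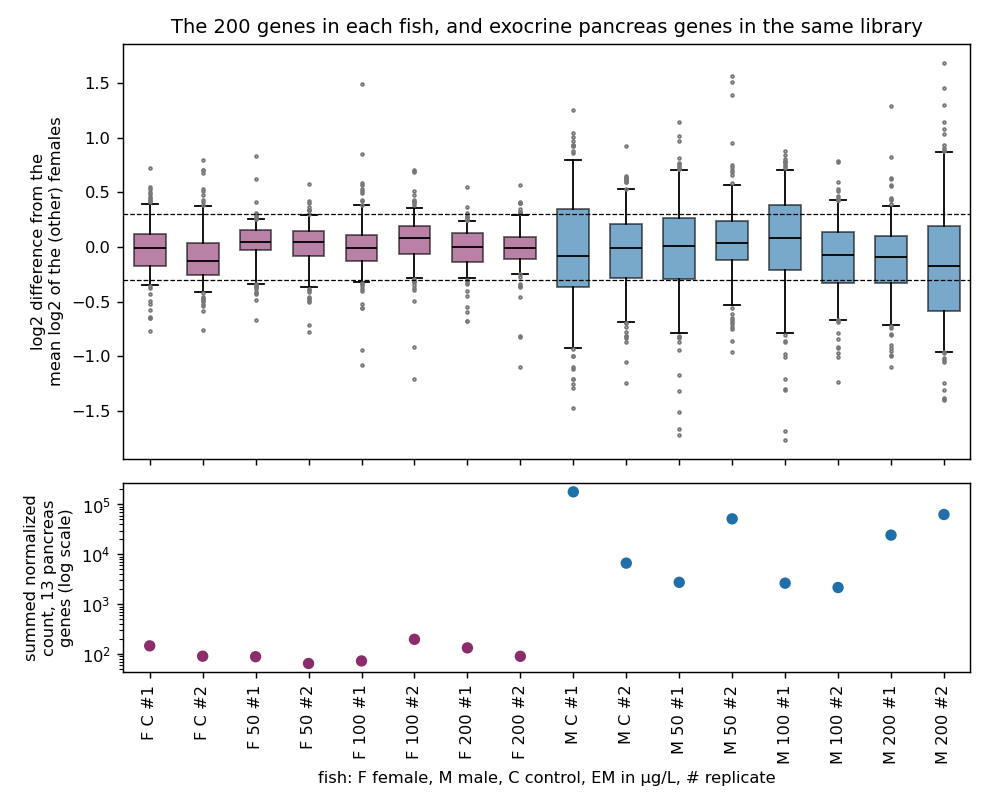
Upper panel, log2 difference of each of the 200 genes from the mean log2 of the females (of the other 7 for a female), by fish; boxes span the quartiles, whiskers the 5th to 95th percentiles, and dashed lines mark −0.3 and 0.3. Lower panel, summed normalized count of 13 exocrine pancreas genes in the same fish (log scale). The boxes of the males are wider than those of the females, and the sums of the males lie between 2163 and 179188.

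Control male 1 and EM200 male 2 were both above the other 6 males for 32 of the 200 genes and both below them for 47. The 32 included *eef2b*, *PDIA3*, *UCP2*, *NPC2*, *AHCY*, *ptp4a2b* and *hif1al*, and the 47 included *CDCA7*, *CSPP1*, *SUPT16H*, *NEK2*, *cenpe* and *TTK*. Of the 934 other genes 194 and 168 behaved so. *CDCA7* ran from 1487 in EM200 male 2 and 1623 in control male 1 to 4784 in EM100 male 1, and the other 5 males lay between 2680 and 4711. These 2 fish were picked after the data were seen, for their pancreas and intestine genes, so the counts describe them and carry no test. Without both of them 159 of the 200 genes met both limits, 18 were higher in males by 0.3 or more and 23 higher in females. Without the 4 males richest in pancreas genes 142 did.

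Exposure to EM was not part of the rule, so its effect within each sex was tested on all genes. In EM-females against control females edgeR called 0 of the 200 genes at an adjusted p under 0.05, against 0.0126% of the 15907 genes tested. At an unadjusted p under 0.05 there were 47 of the 200, where all genes gave 11.7%. Of these 34 were higher in EM-females (17% of the 200), against 6.78% of all genes and 13.6% of the 934 other genes at the level minimum, and 13 were lower (6.5%), against 4.96% and 9.53%. The share was 23.5% among the 200 and 23.1% among the 934 other genes at the level minimum, so the 200 did not stand apart from other genes of that level. The median log2 fold change was 0.05 among the 200 and 0.01 over all genes tested, and the values of the 200 ran from −0.66 to 0.63. Without EM100 female 2 the 47 fell to 31. A fit without a control female leaves 1 control, and the median log2 fold change of the 200 was then 0.11 without control female 1 and 0.02 without control female 2.

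DESeq2, the tool the authors used, called 5 of the 200 genes in the same comparison, against 2.83% of 14065 genes. All 6 EM-females lay above both control females in 39 of the 200 (19.5%), against 9.13% of all genes and 17.3% of the 934 other genes at the level minimum. They lay below both in 15 (7.5%), against 6.06% and 8.78%. The controls were 2 fish, which limits a two-sided exact permutation test of a single gene to a p of 0.0357 or more.

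*snrpb* had the smallest p. Its normalized counts were 7100 and 6604 in the control females, and ran from 4160 over a median of 4597 to 5190 in the EM-females, so that the groups did not overlap. The log2 fold change was −0.60 ± 0.09 (SE), with an adjusted p of 0.144 in edgeR and of 0.000281 in DESeq2. Its exact permutation p was 0.0357, the smallest possible. In males the groups overlapped: 4412 and 3149 in the controls stood inside the range from 3046 to 7721 in EM-males.

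*zgc:153345* (ENSDARG00000055622) measured 1847 and 1679 in control females and from 1081 over a median of 1241 to 1321 in EM-females. All 6 EM-females were below both controls, with a log2 fold change of −0.55 ± 0.10 (SE) and an adjusted p of 0.168 in edgeR and 0.00148 in DESeq2. *UCP2* had 2376 and 2641 in the controls and from 1070 over a median of 1645 to 2373 in EM-females. The lower control and the highest EM-female were next to each other, and the adjusted p was 0.392 in edgeR and 0.279 in DESeq2.

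*pdia7* (ENSDARG00000014015), a second disulfide isomerase, was higher in EM-females. It measured 732 and 973 in the control females and from 1223 over a median of 1288 to 1394 in EM-females, with a log2 fold change of 0.58 ± 0.12 (SE) and an adjusted p of 0.181 in edgeR and 0.00561 in DESeq2. *CSPP1*, a protein of the spindle poles, had 850 and 1098 in controls and from 1133 to 1597 in EM-females. *SUCLA2*, a subunit of succinyl-CoA ligase, had 781 and 760 and from 904 to 1256. The adjusted p values of *CSPP1* and *SUCLA2* in edgeR were 0.292 and 0.264, and in DESeq2 0.143 and 0.0904.

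The other genes that DESeq2 called were *srsf2a* and *cpsf2*, the latter named here after its values were seen. *srsf2a* had 2507 and 2574 in the control females and between 1735 and 2050 in EM-females. *cpsf2*, a subunit of the complex that cuts the 3′ end of messages, had 2239 and 2220 in controls and between 2697 and 3206 in EM-females. In edgeR their adjusted p values were 0.173 and 0.193. The calls of DESeq2 thus covered 3 genes lower and 2 higher in EM-females, none of which passed in edgeR.

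By role, log2 fold changes in EM-females were above 0 for 8 of 9 folding genes (−0.03 to 0.58), 8 of 8 of membrane traffic (0.01 to 0.24), 4 of 4 of DNA maintenance (0.22 to 0.35) and 11 of 13 of chromatin (−0.24 to 0.35). They were above 0 for 12 of 20 of the proteasome and ubiquitin system, 12 of 19 of splicing, 6 of 11 translation factors, 6 of 15 of mitochondrial energy production, 4 of 7 kinases and phosphatases and 3 of 5 of nuclear transport. Among all 200 genes 120 were above 0. Over the whole lists, members or not, edgeR called 1 of 257 splicing genes at an adjusted p under 0.05 and 0 in each of the other 17 lists, against 0.0126% of all genes. An unadjusted p under 0.05 was reached, against 11.7% of all genes, by 54 of the splicing genes, 22 of 81 ribosomal proteins, 11 of 89 translation factors, 11 of 35 of tRNA charging, 17 of 126 folding genes and 58 of 322 of the proteasome and ubiquitin system. It was reached by 34 of 192 of mitochondrial energy production, 2 of 33 of glycolysis, 55 of 401 of chromatin, 16 of 86 of DNA maintenance, 11 of 69 of nuclear transport and 50 of 357 of membrane traffic. The remaining lists gave 22 of 108 actin genes, 22 of 140 of microtubules, 52 of 337 kinases and phosphatases, 10 of 43 pumps, 6 of 64 antioxidant and iron genes and 6 of 32 reference genes. The lists differ in level: 64 of 84 ribosomal proteins but 39 of 421 kinases and phosphatases reached the level minimum. Among the 934 other genes at that minimum 23.1% had such a p. Shares above 11.7% are therefore not read as results about the lists.

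In EM-males against control males edgeR called 0 of the 200 genes, against 0.00515% of 19417 genes, and DESeq2 0, against 0.677% of 18603. At an unadjusted p under 0.05 there were 2 in edgeR (1%), against 6.12% of all genes. Among the 934 other genes at the level minimum the share was 2.78%. All 6 EM-males were above both control males in 6 of the 200 (3%), against 5.4% of all genes and 5.03% of those 934. They were below both in 5 (2.5%), against 2.9% and 2.03%. The median log2 fold change was −0.02 among the 200 and 0.02 over all genes. Leaving out single EM-males gave 10 genes without EM200 male 2 and 2 without EM100 male 1. It gave 1 without EM50 male 1, EM50 male 2, EM100 male 2 or EM200 male 1. A fit without a control male leaves 1 control, so only its effect size is given. The median log2 fold change of the 200 was −0.02 without control male 1 and 0.06 without control male 2. Without control male 1 and EM200 male 2, the fish richest in pancreas genes, it was −0.03.

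*tubb2b* (ENSDARG00000098591) was the clearest of them. Its normalized counts were 2733 and 3802 in the control males and ran from 1762 over a median of 1888 to 2061 in EM-males, with a log2 fold change of −0.81 ± 0.24 (SE) and an adjusted p of 0.715 in edgeR and 0.171 in DESeq2. Females gave no such gap, with 2799 and 2496 in the controls inside the range from 2113 to 3057 in EM-females.

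*ACADVL* (ENSDARG00000016687), an enzyme of fatty acid oxidation, had 1687 and 1259 in control males and from 683 over a median of 838 to 1238 in EM-males. In females it was 1066 and 1017 in the controls and between 1157 and 1449 in EM-females. Its log2 fold changes were −0.74 ± 0.29 (SE) in males and 0.28 in females, and neither passed adjustment in edgeR.

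*BANF1*, which ties DNA to the nuclear envelope, had 2476 and 2256 in control males and from 1362 to 2155 in EM-males. Higher in all EM-males were *OSBP*, an oxysterol-binding protein, with 572 and 892 against 966 to 1354, *csnk2a2a*, a catalytic subunit of casein kinase 2, with 778 and 769 against 1012 to 1340, and *VPS13A*, a lipid transfer protein, with 882 and 671 against 928 to 1265. The adjusted p values of these 4 genes in edgeR lay between 0.831 and 0.862. The groups did not overlap, and the differences did not pass adjustment.

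**Figure D4:**
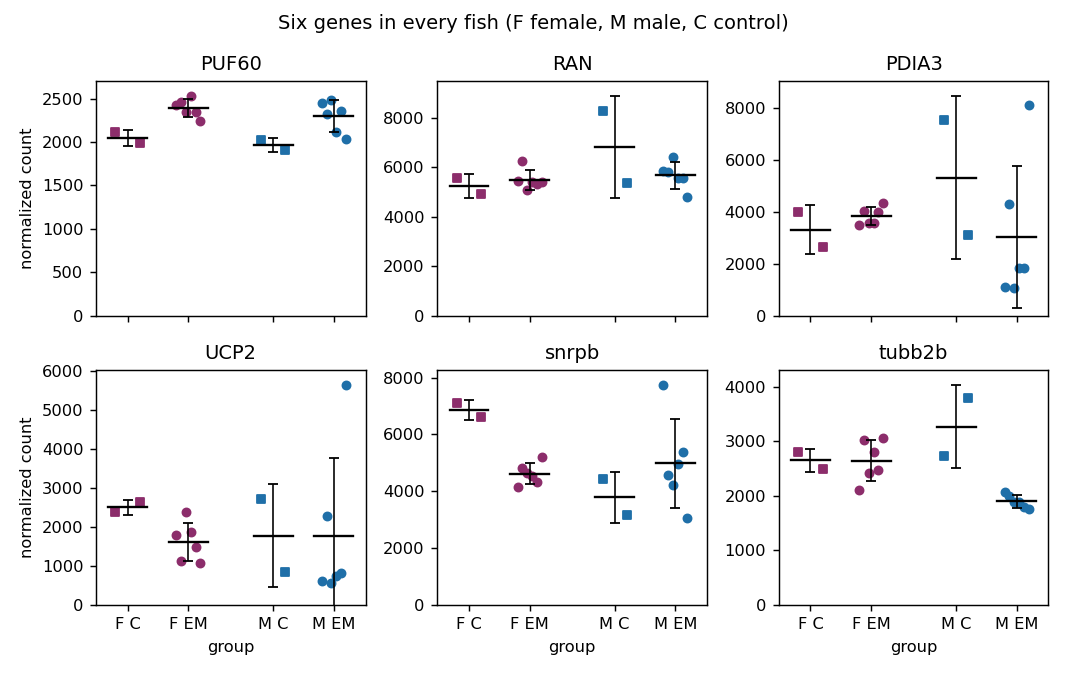
Normalized counts (y, from 0) of 6 genes in every fish, by sex and treatment; squares are control fish (2 per sex), circles EM fish (6 per sex, all concentrations), long bars the means and error bars 1 SD. *PUF60* lies between 1911 and 2526 in all 16 fish, *PDIA3* and *UCP2* spread widely in males, *snrpb* is lower in all 6 EM-females and *tubb2b* lower in all 6 EM-males than in their controls.

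The interaction of EM and sex asks whether EM changed a gene differently in ovary and testis. edgeR called 0 of the 200, against 0% of 22106 genes, and DESeq2 0, against 0.569% of 19502. At an unadjusted p under 0.05 there were 9 in edgeR (4.5%), against 7.6% of all genes. Among the 934 other genes at the level minimum the share was 6.85%. Of the 9, 4 had the larger log2 fold change in females and 5 had the larger in males. *ACADVL* had the smallest p, with a difference of 1.03 ± 0.28 (SE, females minus males) and an adjusted p of 0.422 in edgeR. The 9 became 26 without EM200 male 2 and 19 without EM100 male 1. Fits without a control male again leave 1 control of that sex. The median log2 difference of the 200 (females minus males) was 0.06 with all fish and 0.15 without control male 1. It was −0.04 without control male 2, and 0.10 without control male 1 and EM200 male 2.

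**Figure D5:**
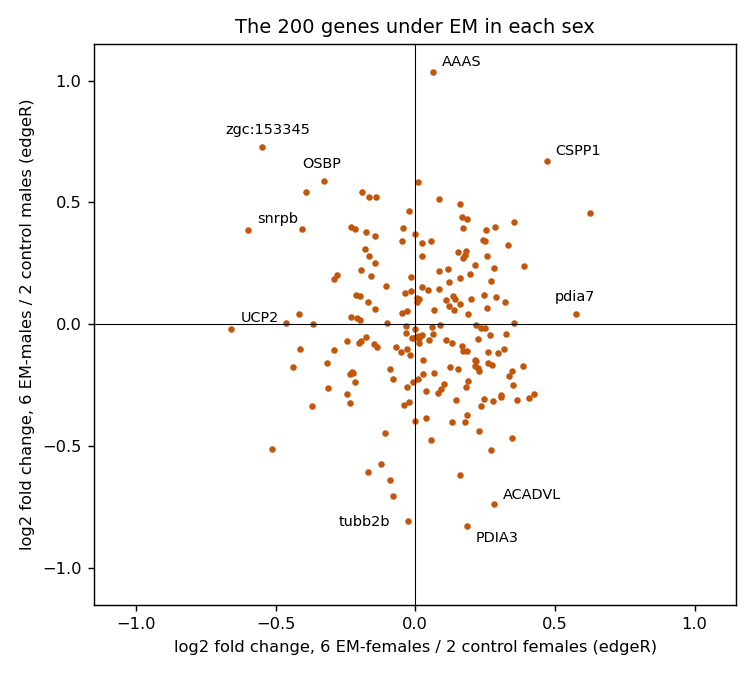
Log2 fold change of EM against control fish for the 200 genes in females (x) and in males (y), as fitted by edgeR. The values run from −0.66 to 0.63 in females and from −0.83 to 1.04 in males, and none passed an adjusted p of 0.05 in edgeR in either sex.

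A trend with concentration was fitted over the 6 EM fish of each sex, as the change per doubling of the EM concentration. In EM-females edgeR called 0 of the 200, against 0% of 14854 genes, and DESeq2 0, against 0.741%. At an unadjusted p under 0.05 there were 7 in edgeR (3.5%), against 4.22% of all genes. Among the 934 other genes at the level minimum the share was 2.68%. Of the 7, 1 had a positive and 6 a negative slope. Without EM100 female 1, and also without EM200 female 2, there were 3. In EM-males edgeR called 0, against 0% of 17541 genes, and DESeq2 0, against 0.322%. At an unadjusted p under 0.05 there were 4 (2%), against 4.38% of all genes and 1.39% of those 934. There were 10 without EM50 male 2, 7 without EM200 male 2, 2 without EM50 male 1 and 2 without both EM50 male 2 and EM200 male 2. The slopes of the 200 genes ran from −0.31 to 0.31 in females and from −0.80 to 0.66 in males on the log2 scale.

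The sizes of these effects were small. The median absolute log2 fold change of the 200 genes was 0.18 in EM-females and 0.20 in EM-males, beside 0.30 and 0.43 over all genes tested and 0.16 and 0.22 over the 934 other genes at the level minimum. Of the 200 genes 0 changed by 1 or more on the log2 scale in EM-females and 1 did in EM-males. Among the 934 other genes at the level minimum 5 and 13 did, and over all genes tested 1892 of 15907 and 3683 of 19417. The 1 in EM-males was *AAAS*, a protein of the nuclear pore. It had 575 and 607 in the control males and 505, 634, 1133, 1170, 1607 and 2378 in EM-males, so that the groups overlapped.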

How the data were processed

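The members and gene lists were chosen with earlier results of these data known. RNA from gonads of 16 fish was mapped by the authors with HISAT2 2.0.5 to the Ensembl genome (release 95), freed of duplicates with SAMtools 1.5 and counted per gene with HTSeq 0.9.1 on the reverse strand. The authors deposited read counts, as whole numbers, and a normalized signal for 28353 genes, which is each count over a size factor from DESeq2. In the files the ratio held to within 5.57e-08%. Reads that HTSeq tallied as not unique are in no gene. They made up 33.5% to 36.7% in the females and 24.8% to 31.7% in the males, so the sexes did not overlap. The part of this in the ratios between the sexes was not tested. In 1 cell 2 values stood together and were read as 2 values. Of the columns with values 0 were left unused. All 200 genes have a symbol in the table of gene names used, in capitals (human style) for 126, and 15 symbols are shared with another gene.

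EM against control was fitted within each sex on all genes with edgeR 4.0.16 in R 4.3.3 (TMM, filter on low counts, quasi-likelihood test, two-sided, Benjamini-Hochberg adjustment over all genes tested, threshold 0.05). The interaction used all 16 fish, and the trend the 6 EM fish of a sex. The alternatives were DESeq2 1.42.0, its size factors in edgeR, no filter, a replicate block, single concentrations, 1 model of all fish and each fish left out. The fits without the males rich in pancreas genes, the pancreas and intestine lists and the protein complexes were added after the data were seen. For the rule itself other scalings, ratio limits (0.2 and 0.5) and minima (200 and 1000) were tried.

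Genes named in the text are the 15 with the highest mean, the 3 with the largest fold change in each direction among those whose groups did not overlap for each sex, those nearest to the limits, the 3 with the smallest and largest spread, the 3 highest of each list and the reference genes, of which 1 is not reported here. Others were named after their values were seen. Null controls, juvenile samples and sequences of the genes were not analysed here.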

Additional observations from a re-analysis of the deposited data

Results flagged for a closer look

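Of the 200 genes, 7 had 1 EM fish far from the other 5 of its sex. *eef2b* reached 36140 normalized counts in EM200 male 2, *NPC2* 4920 and *UCP2* 5638 in the same fish. *RPL5* reached 10219 and *CCT6B* 4121 in EM50 male 2. *RAN* reached 6245 in EM50 female 2, where *csnk2a2a* had its lowest value of the EM-females, 752. The share of counts on the 200 genes was 5.34% in EM50 female 1, above the other EM-females. In all 62 groups of 6 fish were looked at and 8 values stood apart. The cutoff flags about 1 in 20 groups by chance. The groups here share the same fish, and some genes were named for their wide spread, so the 8 cannot be read against that rate. EM200 male 2 and EM50 male 2 were also rich in pancreas genes (62920 and 51552 summed normalized counts), and the part of these in the values was not tested.

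*ACADVL* was higher in all 6 EM-females than in both control females, and lower in all 6 EM-males than in both control males. The difference between the sexes was 1.03 on the log2 scale (females minus males), and edgeR's interaction test gave it an adjusted p of 0.422.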

How the results depend on the processing

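The number of genes that met both limits was 270. It moved beyond 1.5 times with a ratio limit of 0.5 (446), a minimum of 200 (628) and a minimum of 1000 (94), and leaving out 1 fish gave from 265 to 301 genes, of which 182 to 197 were among the 200. Under the same changes of setting, 102 of the 200 met both limits with TMM, 94 with a minimum of 1000 and 125 in control fish alone.

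In EM-females DESeq2 called 5 of the 200 genes where edgeR called 0. In the other alternatives with 2 controls per sex (size factors of DESeq2, no filter, replicate block, single concentrations, 1 model of all fish and each EM fish left out) the count called was 0. That held for both sexes, the interaction and both trends, wherever the alternative was run. Fits without a control fish leave 1 control of that sex, and above they are given by effect size. Of the 12 genes named for the EM comparisons, 3 passed the threshold in an alternative fit (*snrpb* at −0.60, *zgc:153345* at −0.55 and *pdia7* at 0.57, all with DESeq2). All 12 were named for groups that did not overlap, and none passed in the main fit. That the other fits kept their direction and side of the threshold was therefore largely set beforehand.

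Members at an unadjusted p under 0.05 in edgeR were 47 in EM-females, but 28, 32 and 17 at 50, 100 and 200 μg/L alone and 3 in 1 model of all fish. In EM-males they were 2, but 10 in 1 model of all fish. The trends gave 7 and 4, but 0 and 23 in that model. The cause was not tested.

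Replicate numbers name different animals. Same-numbered fish of 2 groups deviated together with a median correlation of −0.0067 (range −0.29 to 0.30). It was over 0.1 in 3 of 28 pairs of groups, all of them between EM-male groups (0.14 to 0.30). Control males against EM-male groups gave −0.29 to −0.20, and all other pairs lay closer to 0. The numbers were not read as pairs, and the cause of the pattern in males was not tested. With the replicate block 0 of the 200 genes were called in each of the 5 comparisons, and the trend in EM-females had 2 genes at an unadjusted p under 0.05 in place of 7.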
